A study of Mus musculus with 2 samples.

Results

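The 9 genes described here encode regulators and receptors that mark mesenchymal and stromal cells of the embryo, namely *Tcf21*, *Twist1*, *Twist2*, *Prrx1*, *Foxd1*, *Meis1*, *Meis2*, *Pdgfra* and *Pdgfrb*. They were chosen by name, as all probes on the arrays that carry one of these gene names, which gave 10 probes for 9 of the 29924 gene names on the array. *Prrx1* had 2 probes and the other 8 genes had 1 each. The embryos were NMRI wildtype mice at E11.5. Their ureters were explanted, pooled, and kept for 18 h in serum-free culture with either 10 µM IWP-2, dissolved in DMSO, or DMSO alone at 2 parts in 1000. IWP-2 is a small molecule that inhibits the acyltransferase PORCN, so that cells no longer release active WNT ligands. There were 2 pools per group, and each array compared 1 treated with 1 control pool in separate dye channels, with the dyes exchanged on replicate 2. The comparison asks which transcripts depend on WNT signals in the early ureter within 18 h. The sex of the embryos was not determined. The labels do not say whether the pools of a group came from separate cultures, so p-values measure only the spread between these pools, which may be technical. RNA came from whole explants, so that fewer cells of a type and less RNA per cell cannot be told apart.

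The ureter arises as an epithelial tube inside a coat of mesenchyme, and WNT ligands from the epithelium act on the neighbouring mesenchymal cells through beta-catenin and the TCF/LEF factors. *Tcf21*, *Twist1* and *Twist2* encode basic helix-loop-helix (bHLH) factors that pair with E proteins on DNA and are held in check by ID proteins. *Prrx1*, *Meis1* and *Meis2* encode homeodomain factors, and *Foxd1* encodes the forkhead factor that defines the stroma of the kidney. *Pdgfra* and *Pdgfrb* encode receptor tyrosine kinases for platelet-derived growth factors (PDGF), the latter being typical of pericytes and other mural cells.

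The sequences behind the genes with the lowest ratios are shown first. The single *Tcf21* probe lay at chr10:22537563-22537622 on the minus strand of mm9, the build of the array's annotation, and 1 of its 3 reading frames held no stop codon. The 2 *Prrx1* probes lay at chr1:165175375-165175434 and chr1:165185408-165185467, also on the minus strand of mm9, and were annotated by the array to different transcripts of the gene. Gene models of mm9 were not used here, so positions in exons are not given. The 250 bases before the start of *Tcf21* and *Prrx1* are printed with those of *Meis2*, the other member with a match to the letters searched. They come from RefSeq on GRCm38.p6, at chr10:22820144-22820393, chr1:163313651-163313900 and chr2:116064620-116064869, all on the minus strand and written 5′ to 3′ along the gene. Capitals mark CTTTGA, the core letters of TCF/LEF sites, or TCAAAG, its form on the other strand.
Tcf21 probe: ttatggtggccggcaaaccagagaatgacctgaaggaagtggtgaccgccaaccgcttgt
Tcf21 upstream: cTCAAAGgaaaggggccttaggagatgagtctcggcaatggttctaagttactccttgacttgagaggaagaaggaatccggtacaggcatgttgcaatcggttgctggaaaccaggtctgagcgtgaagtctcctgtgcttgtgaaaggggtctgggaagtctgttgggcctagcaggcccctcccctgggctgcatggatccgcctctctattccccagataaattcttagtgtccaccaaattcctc
Prrx1 upstream: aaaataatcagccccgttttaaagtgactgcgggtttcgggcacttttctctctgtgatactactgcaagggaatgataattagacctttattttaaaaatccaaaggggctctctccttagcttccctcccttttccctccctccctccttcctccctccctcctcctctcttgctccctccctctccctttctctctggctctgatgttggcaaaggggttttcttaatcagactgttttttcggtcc
Meis2 upstream: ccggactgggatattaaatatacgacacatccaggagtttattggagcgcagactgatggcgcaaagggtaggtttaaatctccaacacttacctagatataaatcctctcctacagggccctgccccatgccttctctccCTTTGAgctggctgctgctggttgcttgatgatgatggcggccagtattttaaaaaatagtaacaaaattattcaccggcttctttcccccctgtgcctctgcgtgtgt
Matches were found in 2 of the 8 members whose windows were in the table, once at 249 bases before the start of *Tcf21* and once at 109 bases before that of *Meis2*. Of all 32851 windows of this length, 13.8% held a match, so a match is common and is given as a description of the letters only.

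Of the 9 genes, *Tcf21* was lower after IWP-2 and passed a false discovery rate (FDR) of 0.05, and none of the others did. *Prrx1* had a ratio almost as low, while *Pdgfrb*, *Twist1*, *Meis1* and *Meis2* had ratios above 0 on both arrays. Of all 20119 genes tested, 1.15% passed FDR 0.05 as lower and 0.611% as higher (limma, Benjamini-Hochberg). At an unadjusted p of 0.05 in limma, 6 of the 9 genes passed, 2 as lower, where 4.74% of all genes did, and 4 as higher, where 8.67% did. This count was between 2 and 6 in the 12 alternatives, and with median centring in place of loess it was 3, *Tcf21*, *Prrx1* and *Pdgfrb*. By sign alone, 4 of 9 were lower on both arrays, where 27.5% of all genes were, and 4 of 9 were higher on both, where 28.5% were. With median centring the latter count was 2 of 9, as *Meis1* and *Meis2* then had ratios of -0.06 and -0.07 on replicate 2. *Foxd1* went in opposite directions on the arrays. All 10 probes were well above background in all 4 pools, and no spot was saturated. The median of the mean log2 ratios was 9.98e-06 over all genes and 0.27 over the 9 genes, the latter being the value of *Foxd1* itself. On the single arrays the median over the 9 genes was 0.17 (replicate 1) and -0.01 (replicate 2).

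**Figure D1:**
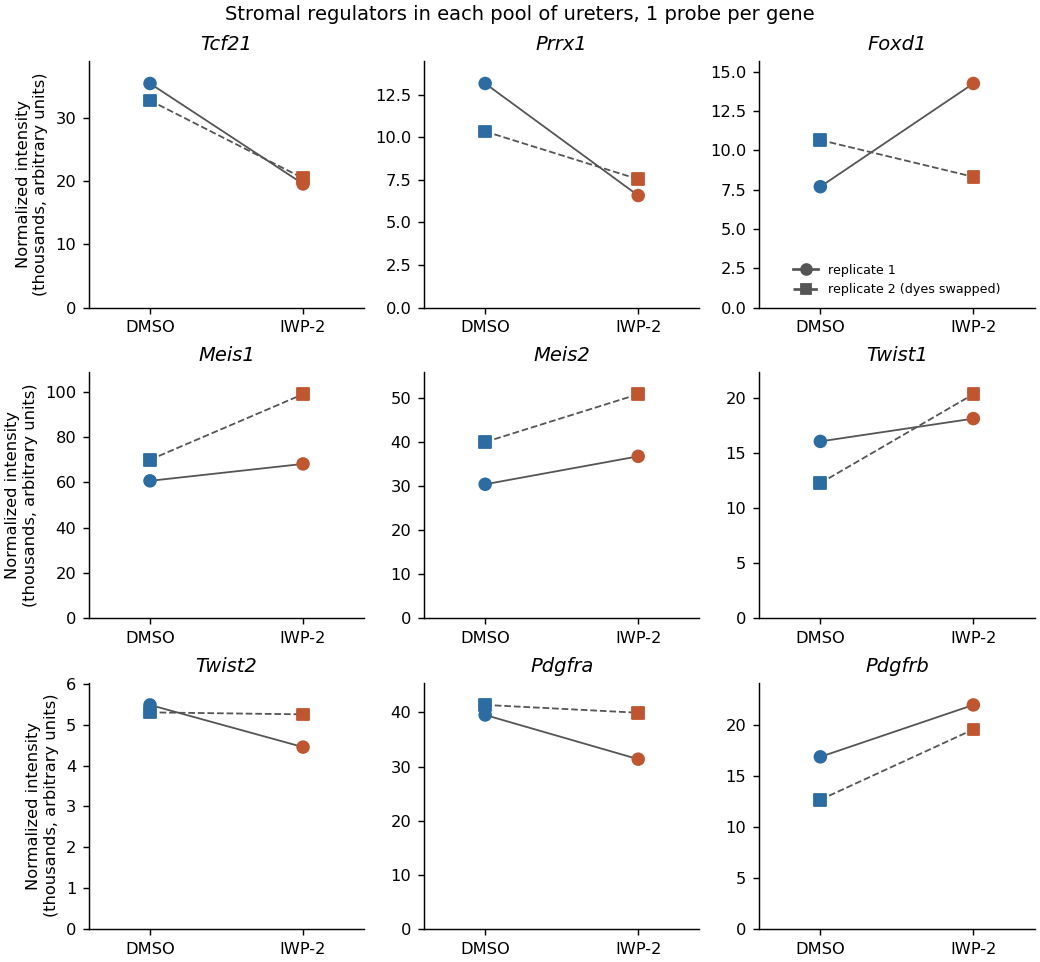
Normalized intensity (vertical axis, arbitrary units divided by 1000, from 0) of 1 probe per gene in the DMSO and IWP-2 pools (horizontal axis), with a line joining the pools of 1 array. Circles are replicate 1 and squares replicate 2, and vertical scales differ between genes because levels of different probes are not comparable. *Tcf21* falls on both arrays, from 35482 to 19574 and from 32790 to 20480, and the *Foxd1* lines cross.

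*Tcf21* encodes a bHLH factor of visceral and urogenital mesenchyme. Its normalized intensity was 35482 and 32790 in the control pools of replicates 1 and 2, and 19574 and 20480 in the treated pools. Both treated pools lay below both control pools, and the pools of a group were close to each other. The log2 ratio was -0.86 ± 0.13 (SD over 4 spots) on replicate 1 and -0.68 ± 0.04 (SD over 4 spots) on replicate 2. The mean log2 ratio was -0.77 with a standard error (SE) of 0.10 and a 95% interval from -1.02 to -0.52, an IWP-2 level of 0.587 times the control (limma, n = 2 arrays, adjusted p = 0.0247). Of all tested genes, 0.875% had a lower mean ratio. The mean stayed between -0.79 and -0.72 in 12 other ways of processing, but the call held in 7 of them, and the adjusted p in limma ranged from 0.00757 to 0.396. With median centring in place of loess it was 0.318, and the array with the lower ratio changed, at -0.61 on replicate 1 and -0.98 on replicate 2.

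*Prrx1* encodes a paired-related homeodomain factor of limb, head and body wall mesenchyme. At the probe used for the gene, the control pools had 13153 and 10336 and the treated pools 6573 and 7535 units of normalized intensity. The groups did not overlap, and the ratio was lower on replicate 1. The log2 ratios were -1.0 ± 0.13 (SD over 4 spots) and -0.46 ± 0.03 (SD over 4 spots), with a mean of -0.73 (SE 0.14, 95% interval from -1.08 to -0.38). This did not pass FDR 0.05 (limma, n = 2 arrays, adjusted p = 0.0723).

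The second *Prrx1* probe showed 8693 and 7376 units in the control pools and 4596 and 4665 in the treated pools. Its log2 ratios were -0.92 ± 0.01 and -0.66 ± 0.02 (SD over 3 spots each), nearer to each other than those of the first probe. When every kept probe was tested as a feature of its own, this probe passed (mean -0.79, adjusted p = 0.0175 in limma) and the first did not (adjusted p = 0.0522). The mean of both probes passed as well (-0.76, adjusted p = 0.0269), as did the first probe under a prior variance that follows intensity (adjusted p = 0.0306) or does so robustly (0.0467). Both probes thus had ratios below 0 on both arrays, and whether the gene was called depended on the probe and on the prior.

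**Figure D2:**
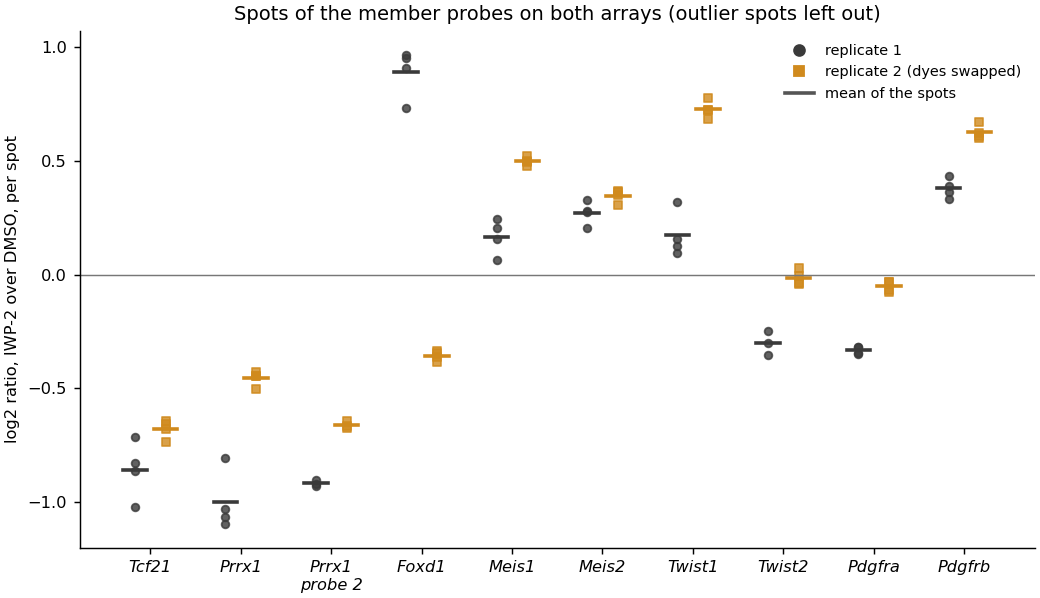
Log2 ratio of IWP-2 over DMSO (vertical axis) of each spot of the 10 probes (horizontal axis), with bars for the mean of the spots on each array. The 4 spots of *Foxd1* lie between 0.73 and 0.97 on replicate 1 and between -0.39 and -0.34 on replicate 2, and the *Tcf21* spots lie below -0.64 on both.

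The other bHLH members, *Twist1* and *Twist2*, encode factors of cranial, limb and dermal mesenchyme, and their probes lay at chr12:34644411-34644470 and chr1:93744519-93744577 on the plus strand of mm9. *Twist1* had 16082 and 12289 units in the control pools and 18156 and 20374 in the treated pools. Both treated pools lay above both control pools, with most of the difference on replicate 2. Its log2 ratios were 0.18 ± 0.10 (SD over 4 spots) and 0.73 ± 0.04 (SD over 4 spots), with a mean of 0.45 (SE 0.15, adjusted p = 0.237 in limma). Median centring in place of loess gave *Twist1* ratios of 0.35 and 0.50, so the size of this gap depended on the normalization. *Twist2* had 5485 and 5302 units in the control pools and 4452 and 5254 in the treated pools. The groups did not overlap, but the 2 pools of replicate 2 were nearly equal. The difference was found on replicate 1, at -0.30 ± 0.05 (SD over 3 spots), while on replicate 2 the ratio was -0.01 ± 0.03 (SD over 4 spots). With median centring in place of loess the ratios were -0.21 and -0.18, so this placing depended on the normalization. Its mean of -0.16 had a 95% interval from -0.43 to 0.11, which leaves room for a change in either direction (limma, n = 2 arrays, adjusted p = 0.720).

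*Meis1* and *Meis2* encode TALE homeodomain factors, which bind DNA together with PBX proteins, and their probes lay at chr11:18780695-18780754 and chr2:115689641-115689700 on the minus strand of mm9. *Meis1* had 60670 and 69997 units in the control pools and 68139 and 98921 in the treated pools. Here the treated pool of replicate 1 lay below the control pool of replicate 2, so the groups overlapped across arrays. The log2 ratios were 0.17 ± 0.08 and 0.50 ± 0.02 (SD over 4 spots each), with a mean of 0.33 (SE 0.12, adjusted p = 0.280 in limma). *Meis2* had 30404 and 39989 units in the control pools and 36747 and 50847 in the treated pools, again with overlap across arrays. Its ratios of 0.27 ± 0.05 and 0.35 ± 0.03 (SD over 4 spots each) were the closest pair among the 9 genes, with an SD between arrays of 0.05. The mean was 0.31 (SE 0.10, adjusted p = 0.231 in limma), and of the 12 alternatives it passed in 1, the authors' table of rounded fold changes (0.26, adjusted p = 0.0422). With median centring the ratios of *Meis1* were 0.65 and -0.06 and those of *Meis2* 0.58 and -0.07, so their sign on replicate 2 depended on the normalization.

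*Pdgfra* and *Pdgfrb* encode the PDGF receptors, and their ratios lay on opposite sides of 0. Their probes lay at chr5:75593888-75593947 and chr18:61244606-61244665 on the plus strand of mm9. *Pdgfra* had 39538 and 41395 units in the control pools and 31371 and 39953 in the treated pools, and the groups overlapped. The ratio was -0.33 ± 0.02 on replicate 1 and -0.05 ± 0.02 on replicate 2 (SD over 4 spots each), so the spots of each array were tight and the arrays were not. The mean of -0.19 had a 95% interval from -0.46 to 0.08 (limma, n = 2 arrays, adjusted p = 0.601). Median centring in place of loess gave *Pdgfra* ratios of -0.01 on replicate 1 and -0.45 on replicate 2. The array with the lower ratio thus depended on the normalization. *Pdgfrb* had 16880 and 12674 units in the control pools and 21971 and 19571 in the treated pools, and both treated pools lay above both control pools. Its ratios were 0.38 ± 0.04 and 0.63 ± 0.03 (SD over 4 spots each), with a mean of 0.50 (SE 0.11, 95% interval from 0.24 to 0.76). This was the highest mean of the 9 genes, an IWP-2 level of 1.42 times the control, and it did not pass FDR 0.05 (limma, n = 2 arrays, adjusted p = 0.0891). With a prior variance that follows intensity it did (adjusted p = 0.0405). Median centring gave *Pdgfrb* ratios of 0.57 and 0.40 (adjusted p = 0.913 in limma), so the array with the higher ratio depended on the normalization.

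*Pdgfrb* is typically found in mural cells. Of 9 markers of these cells and of smooth muscle, 5 were lower and 2 higher on both arrays, where 27.5% and 28.5% of all genes were. Median centring gave 4 lower and 2 higher. None passed FDR 0.05 in limma. At an unadjusted p under 0.05 in limma, 4 passed as lower (*Rgs5*, *Notch3*, *Tagln* and *Acta2*), where 4.74% of all genes did. Another 2 passed as higher (*Kcnj8* and *Abcc9*), where 8.67% did. The summed normalized intensity of the 9 markers was 62755 to 72980 in the control pools and 54257 to 55483 in the treated pools. *Kcnj8* and *Abcc9*, at 129 to 383 units, weighed little in this sum. The median log2 ratio was -0.05 over the 9 markers, and above 0 over those of endothelium, leukocytes, nerve and neural crest, and epithelium. Over all genes tested, 28.5% were higher on both arrays and 0.611% passed FDR 0.05 as higher. All 7 endothelial markers were higher on both arrays. *Kdr* (0.74, adjusted p = 0.0359 in limma) and *Cldn5* (0.65, adjusted p = 0.0347) passed FDR 0.05, although a second *Kdr* probe had 0.20. All 6 leukocyte markers tested were higher on both arrays (5 with median centring), with *Adgre1* (0.92, adjusted p = 0.0409 in limma) past FDR 0.05, and so were 5 of 7 markers of nerve and neural crest (4 with median centring), of which none passed. The summed intensity in control and treated pools was 50819 to 66792 and 84126 to 92695 for endothelium, 48897 to 63377 and 67646 to 78418 for leukocytes, and 130423 to 143560 and 183590 to 189733 for nerve and neural crest. Of 8 epithelial markers, 5 were higher on both arrays (4 with median centring) and none passed, with a median log2 ratio of 0.20. No marker tested was under background in any pool, nor was *Tbx18*, the marker of the ureteric mesenchyme, and the part of these cells in the ratios of *Pdgfrb*, *Twist1*, *Meis1* and *Meis2* was not tested.

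*Foxd1*, with its probe at chr13:99126452-99126511 on the plus strand of mm9, was the member on which the arrays disagreed in sign. Its control pools had 7685 and 10652 units and its treated pools 14249 and 8310, so each group held both a high and a low pool. The log2 ratio was 0.89 ± 0.11 on replicate 1 and -0.36 ± 0.02 on replicate 2 (SD over 4 spots each), and the 4 spots of each array shared a sign. The SD between arrays was 0.88, larger than that of 99.8% of all genes tested, and the mean of 0.27 had a 95% interval from -0.37 to 0.90 (limma, n = 2 arrays, adjusted p = 0.841). The term that changes sign with the dye swap was 0.62 on the log2 scale, which is the gap between the arrays divided by 2, at an unadjusted p of 0.0318 and an adjusted p of 1.00 (limma). No gene of 20119 passed FDR 0.05 for that term, and 438 did at an unadjusted p under 0.05, or 2623 with median centring in place of loess. With 1 array per dye orientation, a difference between dyes and one between the pairs of pools cannot be told apart.

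Wide gaps between the arrays were also found in several markers of nephrogenic mesenchyme, the kidney cells that adjoin *Foxd1*-positive stroma. *Six2*, *Sall1* and *Wt1*, named after their values were seen, had log2 ratios of 1.03, 0.29 and -0.14 on replicate 1 and -0.38, -1.81 and -1.29 on replicate 2. Narrower gaps were found in *Gdnf* (-0.41 and -0.37), *Cited1* (0.22 and 0.14) and *Eya1* (0.16 and -0.21). *Meox1* was higher on both arrays (1.20 and 0.72) and passed FDR 0.05 (adjusted p = 0.0286 in limma). Of the 7 markers, 2 were higher and 2 lower on both arrays, where 28.5% and 27.5% of all genes were. Another 3 changed sign between arrays, as *Foxd1* did and as 8851 of all 20119 genes tested did. Median centring gave 1 marker higher and 2 lower on both arrays. The summed intensity of the 7 markers was 76212 in the control and 89771 in the treated pool of replicate 1. On replicate 2 it was 90944 in the control and 74358 in the treated pool. It was thus higher in the same pool as *Foxd1* on both arrays. The brightest of the 7, *Eya1*, had 38031 and 46776 in the control pools and 42630 and 40519 in the treated pools. The part of the amount of kidney tissue in a pool in the ratio of *Foxd1* was not tested.

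**Figure D3:**
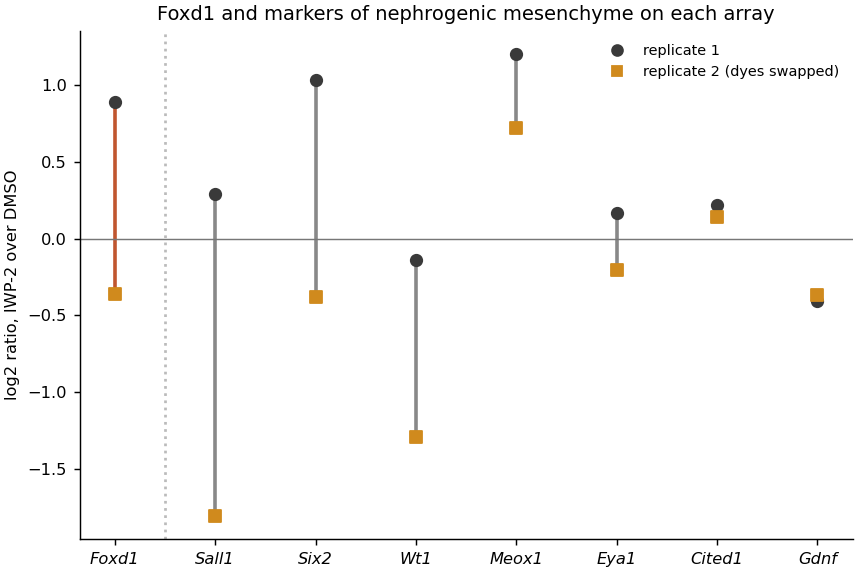
Log2 ratio of IWP-2 over DMSO (vertical axis) of *Foxd1* and of the 7 markers of nephrogenic mesenchyme (horizontal axis) on replicate 1 (circles) and replicate 2 (squares), 1 probe per gene. Lines join the arrays, and *Foxd1*, at 0.89 and -0.36, spans 0 as *Six2*, *Sall1* and *Eya1* do.

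Across the 9 genes, the ratio was higher on replicate 2 than on replicate 1 in 8, all but *Foxd1*. The same order held for 59.3% of all genes tested. It depended on the loess step, since with median centring it held for 3 of the 9 genes and 24.3% of all genes. No member reached the filter of the study's methods, with cut-offs of 100 for the intensity and 2 for the fold change, agreeing in direction, on each array. Of 29899 genes, 50 passed that filter as lower and 11 as higher, and at a fold change of 1.5 *Tcf21* was the 1 member kept. This depended on the probe for *Prrx1*, since its second probe, lower by 1.93-fold and 1.60-fold on the arrays, met that cut-off as well. In the processed signals that the filter used, *Tcf21* had intensities of 3849 against 6775 on replicate 1 and 3726 against 6120 on replicate 2, treated against control.

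**Figure D4:**
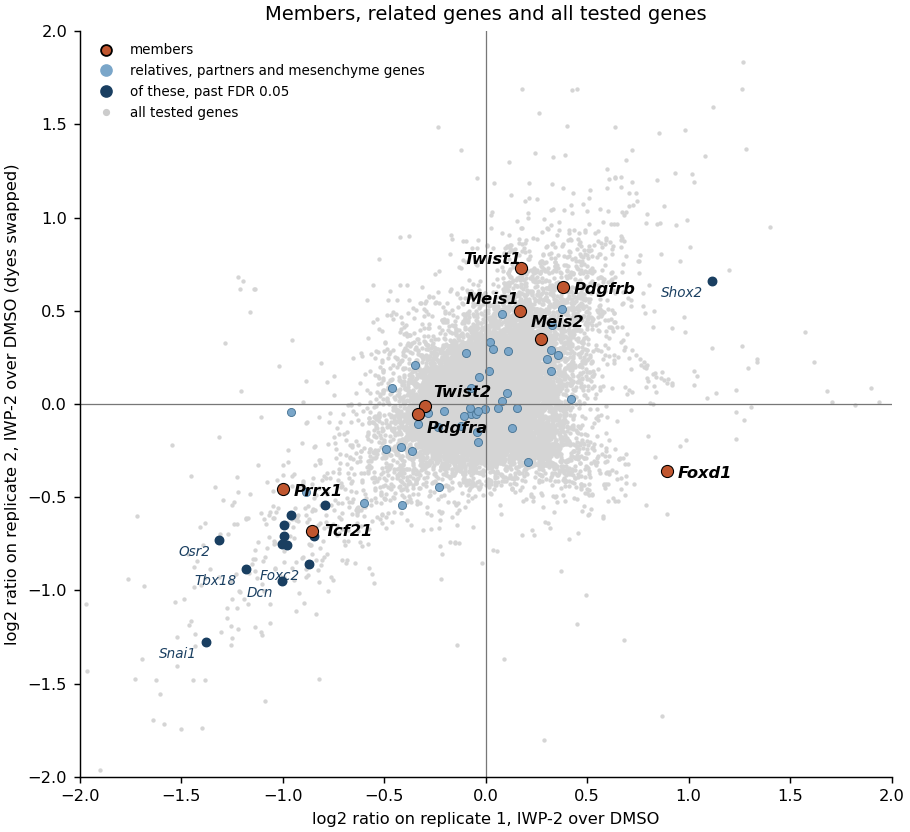
Log2 ratio on replicate 1 (horizontal axis) against replicate 2 (vertical axis) for the 9 members (orange), 58 related genes (blue, dark where past FDR 0.05) and all 20119 genes tested (grey), of which 30 lie outside the axes. *Tcf21* and *Prrx1* lie among the related genes that were lower, and *Foxd1* lies far from the diagonal. *Thy1*, a related gene past FDR 0.05, lies outside the axes at -2.61 and -3.03.

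Genes related to the members in function or family were listed as well, 59 in 5 lists, of which 58 were tested. Of these, 13 passed FDR 0.05 in limma as lower, where 1.15% of all genes did, and 1 as higher, where 0.611% did. The same shares of all genes apply to the counts of each list below. The lists were chosen with earlier results of these data known, so the counts are a description and no test of a list. The median log2 ratio over the 58 was -0.09. Over all lists, markers included, 13 genes were lower and 5 higher, and these counts were 2 and 0 with median centring, 5 and 0 without the filter on dim probes, and 0 and 0 with processed signals or separate channels.

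The list around the bHLH members held 12 relatives and partners of *Tcf21* and the *Twist* genes, with 3 lower at FDR 0.05, none higher, and a median log2 ratio of -0.17. The 3 were *Id2* (-0.88, adjusted p = 0.0184 in limma), *Id1* (-0.82, adjusted p = 0.0300) and *Id4* (-0.78, adjusted p = 0.0367), all inhibitors that keep bHLH factors off DNA. At the other end stood *Tcf15*, a bHLH factor of the somites, with 0.38 (adjusted p = 0.150). Around *Foxd1* and *Prrx1*, 3 of 9 relatives were lower and 1 was higher, with a median of -0.05. *Foxc2*, a forkhead factor of mesenchyme and vessels (-0.86, adjusted p = 0.0136 in limma), *Prrx2*, the closest relative of *Prrx1* (-0.85, adjusted p = 0.0231), and *Alx1*, a paired-like factor of the head mesenchyme (-0.67, adjusted p = 0.0418), fell. *Shox2*, a homeodomain factor of limb and heart, rose by 0.89 (adjusted p = 0.0330).

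The TALE list held 9 relatives and partners of *Meis1* and *Meis2*, and none passed FDR 0.05 in limma. At an unadjusted p under 0.05 in limma 1 passed, as lower, where 4.74% of all genes did. Mean ratios ran from -0.34 for *Tgif2*, a TALE repressor, to 0.28 for *Pbx3*, a MEIS partner, with a median of -0.05. In the PDGF list, 2 of 7 genes were lower and none higher, with a median of 0.09 for the mean, -0.10 on replicate 1 and 0.08 on replicate 2. Both were ligands, *Pdgfc* (-0.87, adjusted p = 0.0180 in limma), which binds the receptor encoded by *Pdgfra*, and *Pdgfd* (-0.78, adjusted p = 0.0224), which binds that encoded by *Pdgfrb*. The highest ratio was 0.44 for *Kit*, a receptor of the same family (adjusted p = 0.106). The other ligand genes of the list, *Pdgfa* and *Pdgfb*, had mean ratios of 0.09 and 0.22 and did not pass (adjusted p = 0.912 and 0.573 in limma). These 2 were named after their values were seen.

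Of 22 other mesenchyme and stroma genes, 21 were tested, 5 were lower at FDR 0.05 and none was higher, with a median log2 ratio of -0.18 for the mean, -0.35 on replicate 1 and -0.06 on replicate 2. *Thy1*, a surface protein of fibroblasts, had the lowest ratio (-2.82, adjusted p = 0.000472 in limma). *Snai1*, a zinc finger repressor of epithelial genes (-1.33, adjusted p = 0.00389), *Tbx18*, a T-box factor (-1.03, adjusted p = 0.0126), *Osr2*, a zinc finger factor of intermediate mesoderm (-1.02, adjusted p = 0.0322), and *Dcn*, which encodes the matrix proteoglycan decorin (-0.98, adjusted p = 0.0107), also fell. *Vim*, the intermediate filament gene of mesenchymal cells, stood highest with 0.31 (adjusted p = 0.234). Among the 109 other tested genes, members and all lists together, those whose ratios on both arrays were nearest to those of *Tcf21* were *Pdgfd*, *Id4* and *Prrx2*, at distances of 0.03, 0.13 and 0.14 on the log2 scale. All 3 had themselves passed FDR 0.05 as lower, which ratios so close to those of a called gene largely fix in advance.

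**Figure D5:**
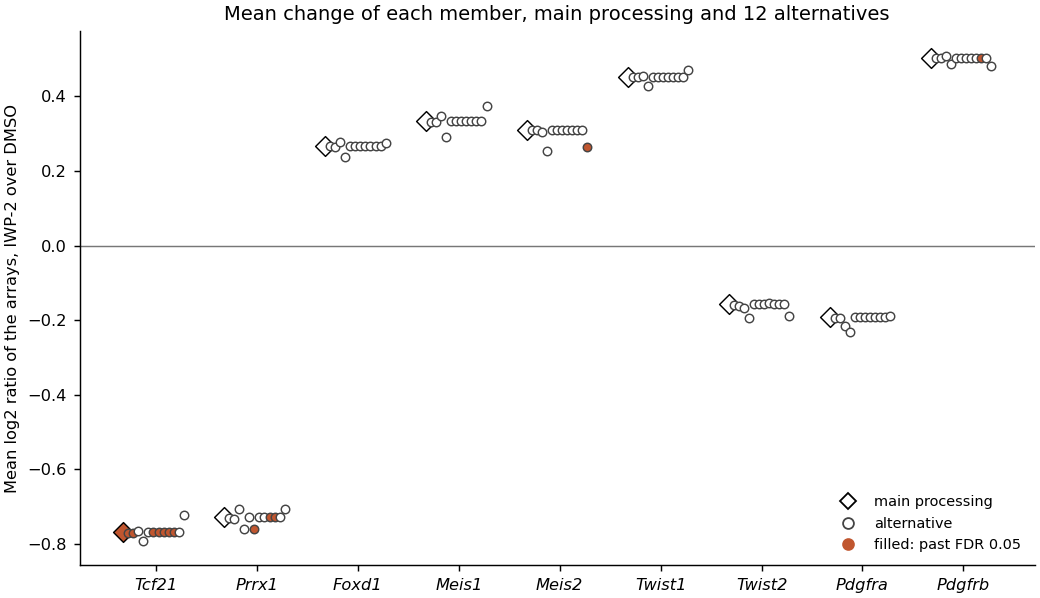
Mean log2 ratio of IWP-2 over DMSO (vertical axis) of each member (horizontal axis) with the main processing (diamonds) and 12 alternatives (circles), filled where the gene passed FDR 0.05. No mean changes sign, and *Tcf21* stays between -0.79 and -0.72 while its call comes and goes.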

How the data were processed

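Each array held 174979 spots, of which 157716 were not controls, 4 for each of 39429 probes of 60 bases. Per the file headers, the deposited files give the intensity of every spot and its local background in both channels, written by Feature Extraction (12.2.0.7 in the header, 10.7.3.1 in the submitters' processing notes), with flags for spots and processed intensities, background-subtracted and dye-normalized. The authors also deposited a series table whose score is a signed fold change rounded to 1 decimal. The arrays shared 1 slide and 1 scan. Here, R 4.3.3 and limma 3.58.1 were used: normexp background correction (offset 50), loess within arrays, outlier spots left out and spots averaged. Probes well above background in more than 0.5 of the spots of 1 group on both arrays were kept, and the brightest kept probe stood for a gene. Ratios were turned to IWP-2 over DMSO and fitted with limma (1 residual degree of freedom, 5.52 borrowed, two-sided, Benjamini-Hochberg over 20119 genes). Levels per pool were also scaled between arrays by quantiles of mean intensity. The number of arrays limits the precision. Of other settings, 12 were run, and the code was tested on simulated data. The members and lists were chosen with earlier results of these data known. All members were named, with the called genes and the extremes of each list and the called markers. Further markers were named after their values were seen. Sequences were read from the array file and RefSeq (GRCm38.p6).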

Additional observations from a re-analysis of the deposited data

How the results depend on the processing

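The mean of each of the 9 genes kept its sign in all 12 alternatives that gave a test. Of the members, 0 were called lower with processed signals (*Tcf21* adjusted p = 0.396 in limma, mean -0.77), median centring (0.318, -0.79), no filter on dim probes (0.0606, -0.77), separate channels with a dye term (0.203, -0.77) and the series table (0.0931, -0.72). With the mean over probes, and with either trended prior, 2 were called lower, *Tcf21* and *Prrx1*. With the plain trended prior 1 was called higher, *Pdgfrb*, and *Meis2* was the 1 called with the series table. Members higher on both arrays numbered 2 with median centring, and members lower on both numbered 2 with the series table, whose rounding put *Twist2* and *Pdgfra* at 0 on replicate 2. At a fold change of 1.5, the filter kept 1 member. Leaving out an array gave ratios from -1.0 to 0.89 with replicate 1 alone and from -0.68 to 0.73 with replicate 2 alone, and *Foxd1* reversed without replicate 1 (-0.36). No call can be made from 1 array.

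Over all genes, 232 were lower and 123 higher. These counts were 0 and 0 with processed signals, 36 and 7 with median centring, 98 and 21 without the filter on dim probes, 0 and 0 with separate channels, and 1323 and 1037 with the series table, whose rounding gave genes with equal values on both arrays. At an unadjusted p under 0.05, limma gave 1108 and 1356 with processed signals and 882 and 1361 with separate channels. The count of higher genes was 74 without background correction, 224 with the mean over probes, 222 with every probe a feature, 226 with the robust and 224 with the plain trended prior. Of the genes in lists, 13 were lower and 5 higher. The lower ones numbered 0 with processed signals, 2 with median centring, 5 without the filter and 0 with separate channels, and the higher ones 2 without background correction, 0 in those 4 settings and 8 with the plain trended prior. The cause of these differences was not tested. The fit used throughout is itself paired, since the ratio of an array is the difference within its pair of pools, and the model of separate channels treats that pairing as a correlation. A further replicate block could not be added.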
